A study of Mus musculus with 36 samples.

Results

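Cirbp and Rbm3 encode the cold-inducible RNA-binding proteins CIRBP and RBM3, and their transcripts were followed in mouse liver for 24 h after lipopolysaccharide (LPS) at 22 °C and at 30 °C. Both genes were found by symbol, which makes 2 members among the 34829 genes measured. The liver came from C57BL6/J mice, the common inbred laboratory strain, and LPS is a Gram-negative cell-wall component that sets off systemic inflammation. At 22 °C, labelled room temperature, there were 4 libraries at 0 h, 4 at 4 h, 5 at 12 h and 5 at 24 h after injection. At 30 °C, labelled TN, there were 5 at 0 h, 4 at 4 h, 4 at 12 h and 5 at 24 h. All 8 groups share the strain and the tissue, and no genotype other than the strain is named. The sources used here give no sex, age or LPS dose. The comparisons ask how each transcript differed between the temperatures at each time and how it changed after injection.

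CIRBP and RBM3 each carry an RNA recognition motif followed by a glycine-rich tail. In mammalian cells mild cooling raises both transcripts and warming lowers them, and the proteins bind other RNAs and affect their stability, polyadenylation and translation. In mouse liver Cirbp is known to follow the daily rhythm of body temperature, and the protein binds the transcripts of clock genes. CIRBP released from cells, called extracellular CIRP, is a danger signal in sepsis that acts through the TLR4 and MD2 receptor complex, which is also the LPS receptor. RBM3 is best known for protecting neurons in the cooled brain and for supporting protein synthesis in the cold. Body temperature was not analysed here.

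On the GRCm38 build Cirbp (ENSMUSG00000045193) lies on chromosome 10 from 80165985 to 80172786 on the plus strand, and the annotation gives it 7 transcripts. Rbm3 (ENSMUSG00000031167) lies on chromosome X from 8138975 to 8145880 on the minus strand, with 11 transcripts. The pseudogene Rbm3-ps on chromosome 1 was listed at 0 in every library. The antisense gene Rbm3os overlaps Rbm3 and was not analysed here, and since the sources used here do not say whether strand was used in counting, reads from the pair may not be told apart.

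The Cirbp promoter is shown because the mild cold-responsive element, a short sequence bound by SP1, was described upstream of mouse Cirbp. The sequence is the 250 bases before a RefSeq transcription start on GRCm38.p6, chr10:80167589-80167838, plus strand. Capitals mark the mild cold-responsive element and both CCAAT boxes.
Cirbp: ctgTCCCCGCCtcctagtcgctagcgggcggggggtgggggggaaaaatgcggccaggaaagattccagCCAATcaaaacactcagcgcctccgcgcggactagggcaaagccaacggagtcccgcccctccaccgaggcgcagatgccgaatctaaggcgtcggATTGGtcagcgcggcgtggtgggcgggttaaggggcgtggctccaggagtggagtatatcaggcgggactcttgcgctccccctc
Motifs were searched on both strands. The element TCCCCGCC begins 247 bases before the start, and 4.64% of 32851 RefSeq promoter windows of the same length hold it. The CCAAT box begins 181 bases before the start on the plus strand and 85 before it on the minus strand, and 33.8% of the windows hold that motif. The GC box GGGCGG, a short SP1 motif, was found 3 times and is held by 32.7% of the windows. The heat shock element searched as GAANNTTC had no match here and is held by 6.69% of the windows. The window before a second RefSeq start of Cirbp, chr10:80167921-80168170, holds 4 GC boxes and no match to the other motifs. A match describes letters in this window and is not a measured binding site.

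Values are the authors' scaled reads per base, called signal below, which is a library-scaled read number divided by transcript length. Estimated reads are the signal divided by its most common positive value in that library, taken as the read unit for every gene. Signal is divided by length, so a read of a given gene can be worth more or less than this unit. Libraries held 557000 to 2744000 estimated reads, and 3 estimated reads, taken as a floor, were worth 1.33 to 5.05 units of signal. No library was under its floor for either gene. Log2 values of libraries within a group correlated at 0.775 to 0.932, so none was a copy of another. All 7 hepatocyte markers were present in every group, with a summed signal of 33974 to 70887 per library. The predicted gene Gm10800 took 14.2% of the signal in replicate 4 at 30 °C and 4 h, against at most 0.798% in any other library. Differences were tested with limma on log2(signal + 1) over 8702 genes, those averaging 5 or more in signal, both members among them, and a gene is called changed at a Benjamini-Hochberg adjusted p under 0.05. The labels do not tie libraries to individual animals. The p-values therefore reflect the spread between libraries, which may be technical. No group without LPS was kept to the later times, so LPS cannot be told apart from the injection, feeding or the time of day. In bulk tissue, fewer cells of a type and less RNA per cell cannot be told apart.

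At 0 h neither gene passed the test between the temperatures. At 22 °C the Cirbp signal was 16.3, 13.3, 11.5 and 20.5 in the 4 libraries. At 30 °C it was 11.1, 6.86, 14.2, 11.2 and 6.79. The ranges overlapped through replicate 3 at 30 °C, and the other 4 libraries at 30 °C were under every 22 °C library. Cirbp was 15.4 ± 3.93 (SD, n = 4) at 22 °C and 10.0 ± 3.17 (n = 5) at 30 °C, and the log2 difference, 30 °C minus 22 °C, was -0.59 ± 0.38 (SE; limma adjusted p = 0.655). Rbm3 at 0 h was 59.3, 49.3, 50.1 and 77.3 at 22 °C. The 30 °C libraries held 39.0, 37.9, 55.1, 59.1 and 94.7. They spread to both sides of the 22 °C libraries, and the log2 difference was -0.10 ± 0.19 (limma adjusted p = 0.929), with a 95% interval of -0.49 to 0.29. Of all 8702 genes tested at 0 h, 0.0919% were higher and 0.414% lower at 30 °C.

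At 4 h after LPS the genes had parted. Cirbp was at its lowest and Rbm3 was above its starting level. Cirbp at 22 °C was 11.3, 3.10, 5.37 and 6.75, a mean of 6.62 ± 3.45 (SD, n = 4). The 30 °C libraries held 1.87, 3.62, 4.61 and 3.49, a mean of 3.40 ± 1.13 (n = 4). These are 3.01 to 10.2 estimated reads per library. Cirbp estimates such as 3.01, 3.61 and 4.21 are spaced by less than the read unit, so its reads may be more numerous than estimated. The 4 h values of Cirbp still rest on few reads, and their log2 differences depend on the added constant. The ranges of the 2 temperatures overlapped, and the log2 difference of -0.72 ± 0.40 did not pass the test (limma adjusted p = 0.676). Rbm3 was 107.5, 85.8, 73.2 and 89.8 at 22 °C. The 30 °C libraries held 62.0, 69.4, 95.4 and 84.7. These ranges overlapped too, with a log2 difference of -0.20 ± 0.20 (limma adjusted p = 0.885). At this time 0.023% of tested genes were higher and 0.184% lower at 30 °C.

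**Figure D1:**
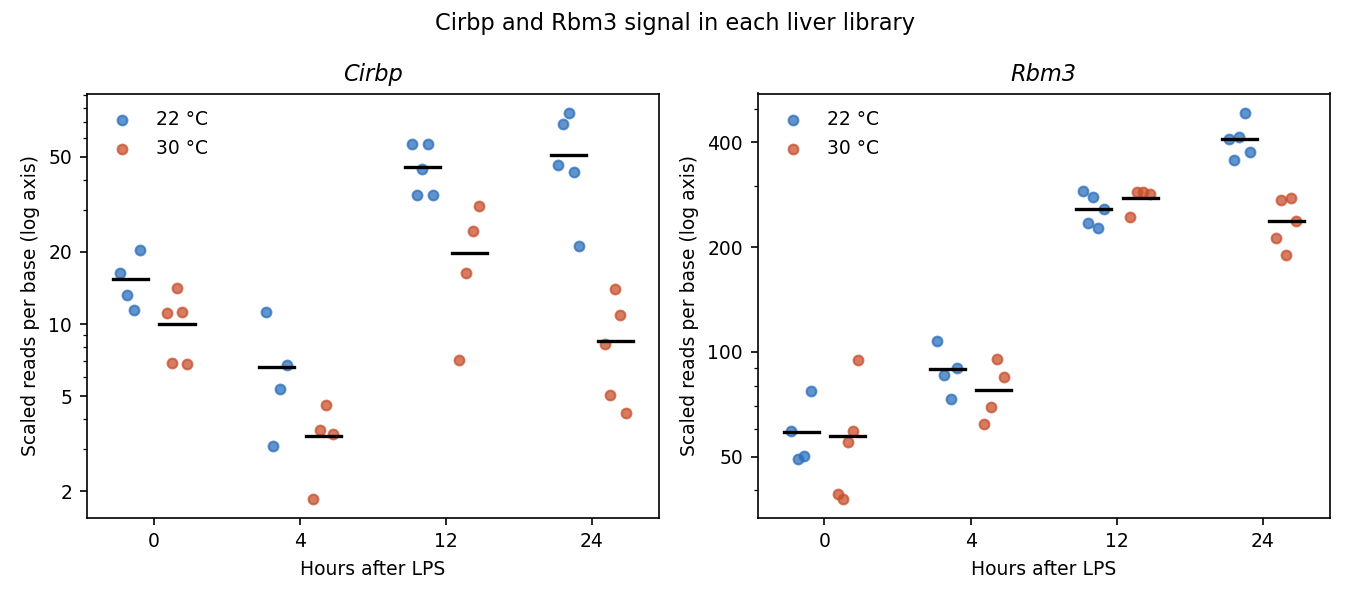
Signal (scaled reads per base, log axis) of Cirbp and Rbm3 in each of the 36 libraries, by hours after LPS and temperature, 1 point per library with bars at the group means. At 24 h the 5 libraries at 22 °C lie above all 5 at 30 °C for both genes, and at 12 h this holds for Cirbp but not for Rbm3.

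At 12 h Cirbp was lower at 30 °C than at 22 °C while Rbm3 showed no such difference. Cirbp at 22 °C was 56.3, 34.5, 44.4, 56.5 and 34.5. The 30 °C libraries held 7.09, 16.3, 24.4 and 31.2. All 4 libraries at 30 °C lay under all 5 at 22 °C, but they differed widely among themselves, and replicate 1 was the lowest. The means were 45.2 ± 10.9 (SD, n = 5) and 19.7 ± 10.4 (n = 4), and the log2 difference was -1.30 ± 0.38 (limma adjusted p = 0.0432). This call is near the threshold. It was lost with an added constant of 0.5 (adjusted p = 0.0511), with no filter on low values (0.103), in a fit of the 2 groups alone (0.0769) and on leaving out replicate 1, 2, 3 or 4 at 22 °C or 1 or 2 at 30 °C. Without replicate 1 at 30 °C the log2 difference was -0.90 (limma adjusted p = 0.233).

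Rbm3 at 12 h was 290.0, 234.5, 278.7, 226.7 and 258.1 at 22 °C. The 30 °C libraries held 244.3, 288.9, 288.3 and 283.5. The 30 °C range lay within the 22 °C range. The log2 difference was 0.10 ± 0.19 (limma adjusted p = 0.866), with a 95% interval of -0.29 to 0.49. Over all tested genes, 0.977% were higher and 3.29% lower at 30 °C at 12 h.

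At 24 h both genes were lower at 30 °C, Cirbp by far more. Cirbp at 22 °C was 46.3, 68.1, 76.1, 43.0 and 21.2. At 30 °C it was 8.24, 5.07, 13.9, 10.9 and 4.23. The lowest library at 22 °C, replicate 5, still lay above the highest at 30 °C. The mean was 50.9 ± 21.8 (SD, n = 5) at 22 °C and 8.49 ± 4.05 (n = 5) at 30 °C, a ratio of means of 6.00. The log2 difference was -2.44 ± 0.36 (limma adjusted p = 6.74e-06), which placed Cirbp at rank 105 of 8702 genes by p. Before scaling, Cirbp held 15.6 to 69.5 estimated reads at 22 °C and 8.42 to 11.9 at 30 °C, in the read unit given above. Libraries held 779000 to 931000 estimated reads in all at 22 °C and 710000 to 2295000 at 30 °C. At 30 °C 4 of the 5 were deeper than every one at 22 °C.

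Rbm3 at 24 h was 409.5, 356.5, 415.0, 486.6 and 375.7 at 22 °C. The 30 °C libraries held 211.9, 273.8, 189.6, 277.7 and 237.8. No library at 30 °C reached the lowest at 22 °C. The means were 408.7 ± 49.8 (SD, n = 5) and 238.2 ± 38.3 (n = 5), a ratio of 1.72, and the log2 difference was -0.78 ± 0.18 (limma adjusted p = 0.00213). At 24 h the shares called over all genes were 9.93% higher and 8.71% lower at 30 °C.

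**Figure D2:**
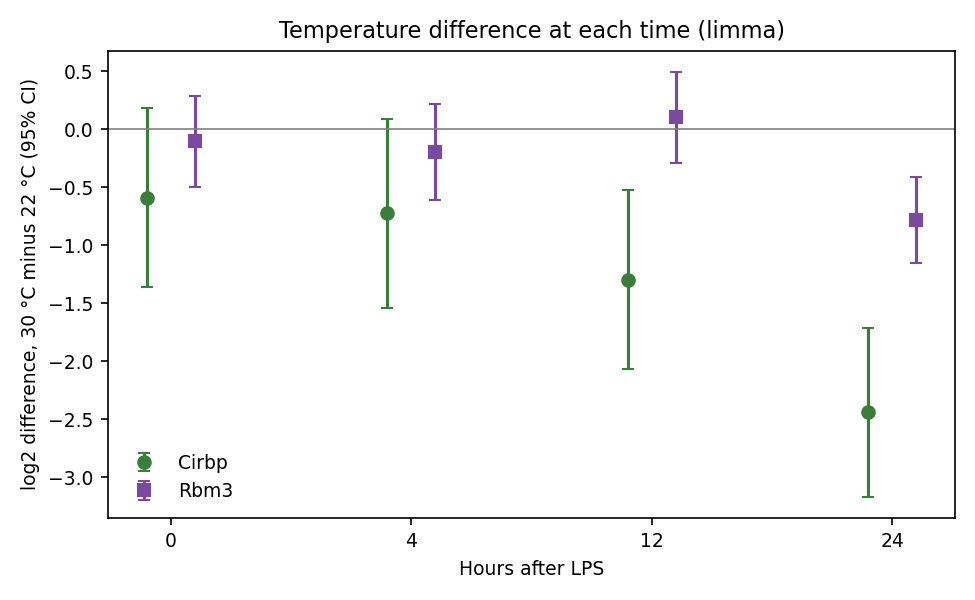
Log2 difference between 30 °C and 22 °C (limma, log2(signal + 1)) for Cirbp and Rbm3 at each time after LPS, with 95% confidence intervals as bars and a line at 0. Cirbp moves from -0.59 at 0 h to -2.44 at 24 h, while the Rbm3 interval clears 0 at 24 h.

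Against 0 h at the same temperature, Cirbp first fell and then rose at 22 °C. It fell at 4 h by 1.18 ± 0.40 on the log2 scale (limma adjusted p = 0.0232), when 15.8% of tested genes were higher and 13.6% lower. All 4 libraries at 4 h were under the lowest at 0 h, by a narrow margin of 11.3 against 11.5. The call was lost without the filter on low values (adjusted p = 0.0503) and without replicate 1 or 4 at 0 h or replicate 2 or 3 at 4 h, where the adjusted p reached 0.108. Cirbp was above 0 h at 12 h by 1.495 ± 0.38 (limma adjusted p = 0.00178), when 20.7% of genes were higher and 20.6% lower. It was above 0 h at 24 h by 1.57 ± 0.38 (limma adjusted p = 0.00122), beside 19% higher and 18% lower. Every 22 °C library at 12 and 24 h lay above every 0 h library.

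At 30 °C Cirbp fell at 4 h and did not pass the test at the later times. The 4 h change was -1.32 ± 0.38 (limma adjusted p = 0.00687), beside 17.8% of genes higher and 14.6% lower. The 12 h change of 0.79 ± 0.38 had an adjusted p of 0.101 in limma, and without replicate 1 at 12 h it was 1.18 with an adjusted p of 0.0147. At 12 h, 19.3% of genes were higher and 18.9% lower. At 24 h the change was -0.28 ± 0.36 (limma adjusted p = 0.606), with a 95% interval of -1.005 to 0.45, beside 15.3% of genes higher and 14.4% lower.

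Rbm3 rose at both temperatures and at every time after LPS. At 22 °C it was 0.60 ± 0.20 above 0 h at 4 h on the log2 scale (limma adjusted p = 0.0241). By 12 h the change was 2.13 ± 0.19 (limma adjusted p = 7.52e-11) and by 24 h it was 2.79 ± 0.19 (limma adjusted p = 1.37e-13), which placed Rbm3 at rank 36 of 8702 genes by p. The means at 22 °C were 59.0 ± 13.0 (SD, n = 4) at 0 h, 89.1 ± 14.2 (n = 4) at 4 h, 257.6 ± 27.3 (n = 5) at 12 h and 408.7 ± 49.8 (n = 5) at 24 h. At 30 °C the log2 changes were 0.50 ± 0.19 at 4 h (limma adjusted p = 0.0428), 2.33 ± 0.19 at 12 h (adjusted p = 7.89e-12) and 2.11 ± 0.18 at 24 h (adjusted p = 2.68e-11). The 30 °C means were 57.2 ± 23.0 (n = 5), 77.9 ± 15.0 (n = 4), 276.3 ± 21.5 (n = 4) and 238.2 ± 38.3 (n = 5).

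The 4 h libraries overlapped the 0 h libraries for Rbm3 at both temperatures, and all 12 h and 24 h libraries lay above them. The 4 h calls were the weak ones. At 22 °C the call was lost without replicate 2 or 3 at 0 h or replicate 1 at 4 h, where the adjusted p in limma reached 0.0882. At 30 °C it was lost under 4 other settings, with an adjusted p of up to 0.216, and without replicate 1, 2 or 3 at 0 h or replicate 3 or 4 at 4 h.

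**Figure D3:**
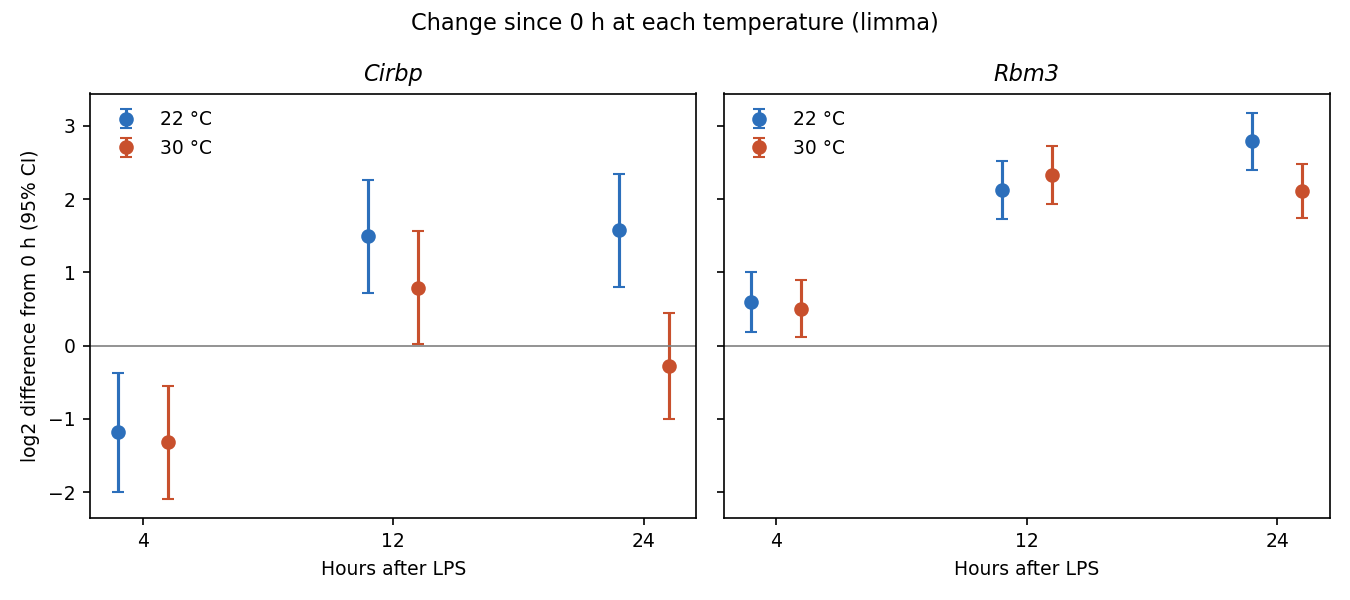
Log2 change since 0 h (limma, log2(signal + 1)) for Cirbp and Rbm3 at 4, 12 and 24 h, at 22 °C and 30 °C, with 95% confidence intervals as bars. Cirbp falls at 4 h at both temperatures and stands at 1.57 (22 °C) and -0.28 (30 °C) at 24 h, while Rbm3 is above 0 throughout.

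The steps between neighbouring times separate the rise from what followed it. Between 4 and 12 h Cirbp rose at 22 °C by 2.68 ± 0.38 (limma adjusted p = 3.33e-06) and at 30 °C by 2.11 ± 0.40 (adjusted p = 0.000105). Over that step Rbm3 rose by 1.53 ± 0.19 at 22 °C (limma adjusted p = 4.83e-07) and by 1.83 ± 0.20 at 30 °C (adjusted p = 1.85e-08). The background of calls in this step was 11.9% higher and 14.4% lower at 22 °C, and 12.3% higher and 17.9% lower at 30 °C.

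Between 12 and 24 h Rbm3 rose at 22 °C and Cirbp fell at 30 °C, and whether these steps differ between the temperatures was not tested. At 22 °C Rbm3 rose again, by 0.66 ± 0.18 (limma adjusted p = 0.0142), with all 24 h libraries above all 12 h libraries. The Cirbp step there was 0.08 ± 0.36 (adjusted p = 0.931). At 30 °C Cirbp fell by 1.07 ± 0.38 (limma adjusted p = 0.0419), and the Rbm3 step was -0.23 ± 0.19 (adjusted p = 0.455). The Cirbp ranges overlapped, since replicate 1 at 12 h was under 3 of the 24 h libraries. That Cirbp call was lost with no filter on low values (adjusted p = 0.0959), in a fit of the 2 groups alone (0.102) and without any of 6 libraries, replicates 2, 3 and 4 at 12 h and 1, 2 and 5 at 24 h (up to 0.187). In this step 4.02% of genes were higher and 6.6% lower at 22 °C, and 11.6% higher and 9.52% lower at 30 °C.

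The interaction tests whether the change since 0 h differed between the temperatures. For Cirbp it was -1.85 ± 0.52 at 24 h (limma adjusted p = 0.0214), since Cirbp was far above its starting level at 22 °C and near it at 30 °C. For Rbm3 at 24 h it was -0.68 ± 0.26 (limma adjusted p = 0.104), which did not pass, although without replicate 2 at 30 °C and 0 h the adjusted p was 0.0442. With no filter on low values the Cirbp interaction had an adjusted p of 0.0505. The 12 h interactions were -0.71 ± 0.54 for Cirbp (adjusted p = 0.647 in limma) and 0.21 ± 0.27 for Rbm3 (0.838). At 4 h they were -0.13 ± 0.55 (0.989) and -0.09 ± 0.28 (0.98). Interactions passed for 5.07% of genes upward and 3.88% downward at 24 h, for 0.0689% and 0.207% at 12 h, and for 0.0115% downward at 4 h.

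Set in order of mean signal, Cirbp was highest at 22 °C and 24 h, then 22 °C and 12 h, whose ranges overlapped. The 30 °C group at 12 h came next, under every 22 °C library at 12 h but overlapping the 22 °C range at 24 h through its replicate 5, and then both 0 h groups, 30 °C at 24 h and both 4 h groups, each overlapping its neighbour. Rbm3 was highest at 22 °C and 24 h, with no overlap with the next group. The 30 °C group at 12 h, the 22 °C group at 12 h and the 30 °C group at 24 h followed and overlapped as neighbours, and the 4 h and 0 h groups lay under them with a gap. The top group was thus 22 °C at 24 h for both genes. The bottom group was 30 °C at 4 h for Cirbp and 30 °C at 0 h for Rbm3.

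Signal is per base, so the genes can be set against each other within a library, with the limit that CEL-Seq2 reads mark transcript 3′ ends and need not scale with length. Rbm3 was above Cirbp in all 36 libraries, by 3.52 to 56.2 times in signal. The size of the ratio depends on the column used. In the authors' other column, named TPM, the means at 22 °C and 0 h were 44.7 for Rbm3 and 17.85 for Cirbp, against 59.0 and 15.4 in signal. The median ratio in signal at 22 °C was 3.75 at 0 h, 13.5 at 4 h, 6.28 at 12 h and 8.85 at 24 h. At 30 °C it was 5.26, 22.5, 14.8 and 25.7. The ratio was thus higher at 4 h than at 0 h at each temperature, and at 30 °C it was highest at 24 h.

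The log2 ratio, log2((Rbm3 + 1)/(Cirbp + 1)), was compared with exact two-sided permutation tests, adjusted over 10 comparisons. It was higher at 30 °C than at 22 °C by 1.40 at 12 h and by 1.66 at 24 h, each with an adjusted p of 0.0397. At 0 h the difference was 0.49 (exact permutation adjusted p = 0.214) and at 4 h it was 0.53 (adjusted p = 0.127), where the smallest raw p that 4 against 4 libraries allow is 0.0286. Without replicate 2 at 22 °C the 4 h difference was 0.78 with an adjusted p of 0.0353. Against 0 h the log2 ratio was higher at 22 °C by 1.78 at 4 h, 0.63 at 12 h and 1.22 at 24 h. At 30 °C it was higher by 1.82, 1.54 and 2.38. All 6 had an exact permutation adjusted p of 0.0397. With fewer arrangements of the libraries, all 3 calls at 22 °C were lost without replicate 1, 2 or 4 at 0 h (exact permutation adjusted p up to 0.067). The 22 °C call at 12 h was also lost without replicate 1, 2, 3 or 5 at 12 h (up to 0.0714), and the 30 °C call at 12 h without replicate 1, 2, 3 or 4 at 0 h or 1 or 2 at 12 h (up to 0.112).

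**Figure D4:**
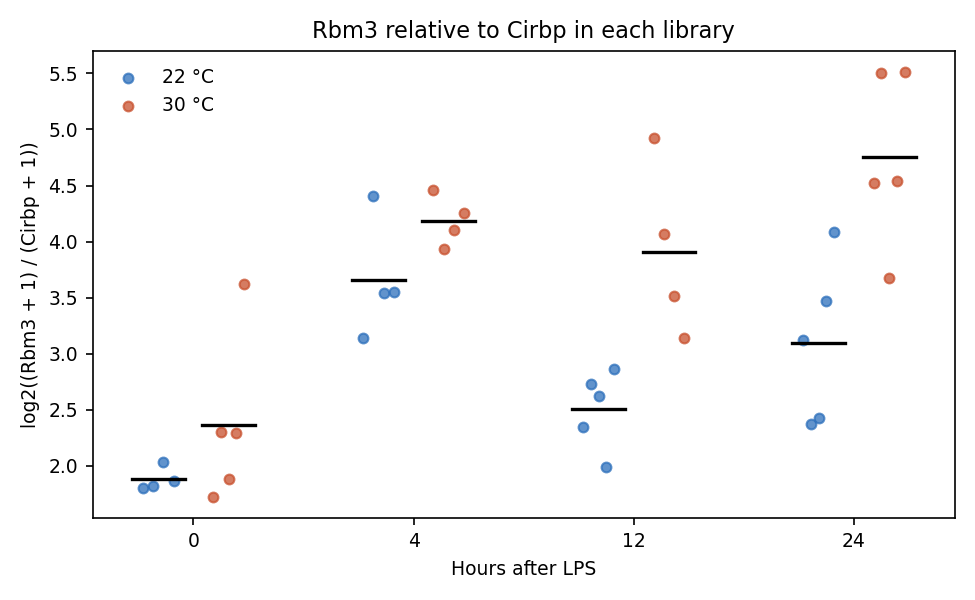
Log2((Rbm3 + 1)/(Cirbp + 1)) in each of the 36 libraries by hours after LPS and temperature, with bars at the group means. At 12 h every library at 30 °C lies above every one at 22 °C, and at 24 h the group means are 4.75 at 30 °C and 3.10 at 22 °C with 1 library at 22 °C inside the 30 °C range.

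Within groups, the relation between Cirbp and Rbm3 did not pass a permutation test. Over the 36 deviations from the group means in log2 signal, permuted within groups, Pearson's r was 0.163 (permutation p = 0.316, adjusted 0.709 over 9 relations) and Spearman's rho was 0.253 (permutation p = 0.162, adjusted 0.364), and r was 0.104 without the 2 farthest libraries. For Cirbp and depth the relation did not pass after adjustment, with r = -0.381 (permutation p = 0.0133, adjusted 0.12) and rho = -0.363 (permutation p = 0.0425, adjusted 0.364), and r = -0.236 without the 2 farthest. For Rbm3 and depth r was -0.001 (permutation p = 0.994, adjusted 0.994) and rho was -0.037 (p = 0.854, adjusted 0.854). The other 6 relations set either gene against summed neutrophil and monocyte, Kupffer cell or endothelial markers, and none passed after adjustment, with r from -0.315 to 0.269 and rho from -0.269 to 0.286. The relation of lowest p among these 6 was Rbm3 with Kupffer cell markers, with r = -0.315 (permutation p = 0.0479, adjusted 0.215), rho = -0.269 (p = 0.141, adjusted 0.364) and r = -0.301 without the 2 farthest. At 24 h the 30 °C libraries had a median of 1452000 reads against 852000 at 22 °C, and at 4 h 1851000 against 1299000. The part of depth in the scaled Cirbp difference was not tested.

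Over the 8 group means of log2 signal, Cirbp and Rbm3 correlated at 0.652, which ranked Rbm3 919th among the 8702 genes most like Cirbp. The 5 genes whose pattern was most like that of Cirbp were Mocs1 (r = 0.957), Nsun2 (0.950), Eif2ak1 (0.949), Matr3 (0.948) and Lrrfip2 (0.947). Mocs1 makes an early intermediate of the molybdenum cofactor, Nsun2 methylates cytosine in RNA, Eif2ak1 is the haem-regulated eIF2α kinase and Matr3 is a nuclear matrix protein that binds RNA. Mocs1 had a mean signal of 94.6 at 22 °C and 47.9 at 30 °C at 24 h, a difference that did not pass (limma adjusted p = 0.0695). For Rbm3 they were Cidec (0.987), Ufd1 (0.986), Plin2 (0.984), Mkrn1 (0.979) and Ctsl (0.979). Cidec and Plin2 coat lipid droplets, Ufd1 works with the segregase p97 in protein degradation, Mkrn1 is a ubiquitin ligase and Ctsl is a lysosomal protease. Plin2 had a mean signal of 846.5 at 22 °C and 678.0 at 30 °C at 24 h, which did not pass either (limma adjusted p = 0.229). These r values are descriptions over 8 points that share the same libraries.

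The relatives of both proteins, 15 proteins with an RNA recognition motif and a glycine-rich or low-complexity region, moved both ways. At 24 h, 2 of the 15 were higher and 4 lower at 30 °C, beside 9.93% higher and 8.71% lower over all tested genes, with a median log2 difference of -0.35 against -0.03 over all tested genes. Hnrnpdl, a hnRNP of alternative splicing, was 259.8 ± 76.6 (SD, n = 5) at 22 °C and 99.0 ± 27.0 (n = 5) at 30 °C, a log2 difference of -1.37 ± 0.23 (limma adjusted p = 6.33e-05). Hnrnpa2b1, a hnRNP of splicing and RNA transport, went the other way, 377.9 ± 62.1 at 22 °C and 635.4 ± 54.4 at 30 °C (difference 0.76 ± 0.11, limma adjusted p = 5.77e-06). Against 0 h, 7 of the 15 rose and 1 fell at 22 °C at 24 h, beside 19% and 18% of all genes, and at 30 °C 4 rose and 1 fell, beside 15.3% and 14.4%. At 12 h 8 of the 15 rose and none fell at 30 °C, beside 19.3% and 18.9% of all genes, and 7 rose and 1 fell at 22 °C, beside 20.7% and 20.6%.

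Of the 8 cold shock domain proteins, RNA-binding relatives of the bacterial cold shock proteins, 4 were tested. None passed between the temperatures at any of the 4 times in limma, nor at an unadjusted p under 0.05. At 24 h 9.93% of all genes were higher and 8.71% lower at 30 °C, and the shares at the other times were smaller. Of the 18 CLK kinases and SR splicing factors, the kinases being thermosensors of splicing that phosphorylate SR proteins, 17 were tested. None passed at 24 h between the temperatures in limma, beside the 9.93% of all genes higher and 8.71% lower. At an unadjusted p under 0.05 there were 2, beside 2670 of all 8702 tested genes. At 12 h Srsf2 was lower at 30 °C (-0.87 ± 0.22, limma adjusted p = 0.0168) and Srsf1 higher (0.65 ± 0.19, adjusted p = 0.0387), beside 3.29% of all genes lower and 0.977% higher. At that time 8 of the 17 had an unadjusted p under 0.05, beside 1465 of all 8702 genes. Against 0 h, Srsf3 rose at 4 h by 1.44 ± 0.24 in the 22 °C group (limma adjusted p = 1.16e-05) and by 1.88 ± 0.23 in the 30 °C group (adjusted p = 3.44e-08). Of the 7 reported regulators, partners and targets of the members, 6 were tested, and none passed between the temperatures at any time in limma. At most 1 had an unadjusted p under 0.05 at any time, beside 2670 of 8702 genes at 24 h.

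Extracellular CIRP acts through receptors of which 2 of 5 were tested. Cd14, a co-receptor for LPS, rose at every time at both temperatures, and at 24 h it was 1007 ± 157 (SD, n = 5) at 22 °C and 329.3 ± 255 (n = 5) at 30 °C, a log2 difference of -1.88 ± 0.28 (limma adjusted p = 7.51e-06). Il6ra, the interleukin-6 receptor, was lower at 30 °C at 12 h by 1.13 ± 0.26 (limma adjusted p = 0.00703), with means of 187.8 at 22 °C and 81.4 at 30 °C. It was also lower at 24 h by 0.68 ± 0.24 (limma adjusted p = 0.0481), with means of 144.1 and 92.1. Over all genes 3.29% were lower at 30 °C at 12 h and 8.71% at 24 h. Tlr4, Ly96 and Trem1 did not pass the filter on low values.

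Clock genes, whose transcripts CIRBP is known to bind, were lower at 30 °C at 24 h in 5 of 14 tested and higher in none, beside 8.71% lower and 9.93% higher over all genes, with a median log2 difference of -0.64. The 5 are Nr1d2, Bhlhe40, Ciart, Per1 and Per2. A further 5 of the 19 clock genes listed did not pass the filter on low values. Ciart and Per2 passed it mainly through 22 °C at 12 and 24 h, which favours a lower call at 30 °C. Their means there were 22.1 and 14.8 for Ciart and 10.9 and 20.3 for Per2. At 30 °C and 24 h Ciart was at 1.94 to 4.32, near the floor. Nr1d2, a nuclear receptor that represses clock genes, was 32.9 ± 6.37 (SD, n = 5) at 22 °C and 11.9 ± 3.46 at 30 °C (difference -1.40 ± 0.24, limma adjusted p = 5.59e-05). Bhlhe40, a repressor of CLOCK targets, was 89.7 ± 13.7 and 37.8 ± 11.9 (-1.26 ± 0.24, limma adjusted p = 0.000303). Heat shock genes, which answer warming, were higher at 30 °C at 24 h in 5 of 16 tested and lower in none, beside 9.93% higher and 8.71% lower over all genes, with a median of 0.37. Hsph1, an HSP110 chaperone, was 5.33 ± 2.80 at 22 °C and 23.4 ± 6.54 at 30 °C (difference 2.01 ± 0.31, limma adjusted p = 1.31e-05). Fkbp4, a partner of HSP90, was 12.2 ± 7.99 and 44.7 ± 17.5 (1.90 ± 0.36, limma adjusted p = 0.000279). Both lay under its 0 h means of 112.6 at 22 °C and 107.8 at 30 °C. Hspa1b, an inducible HSP70, was 3.47 ± 3.49 and 25.2 ± 15.0 at 24 h, with the 22 °C level near the floor and reads shared with its near-identical copy Hspa1a. Against 0 h, 1 of the 16 heat shock genes was higher and 9 lower at 24 h at 22 °C, beside 19% and 18% of all genes. At 30 °C 6 were higher and 2 lower, beside 15.3% and 14.4%. No clock and no heat shock gene passed between the temperatures at 0 or 4 h in limma. At an unadjusted p under 0.05 there were 3 of 14 clock and 3 of 16 heat shock genes at 0 h, beside 861 of all 8702 genes. At 4 h there were 5 of 14 clock and 0 of 16 heat shock genes, beside 709 of 8702.

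**Figure D5:**
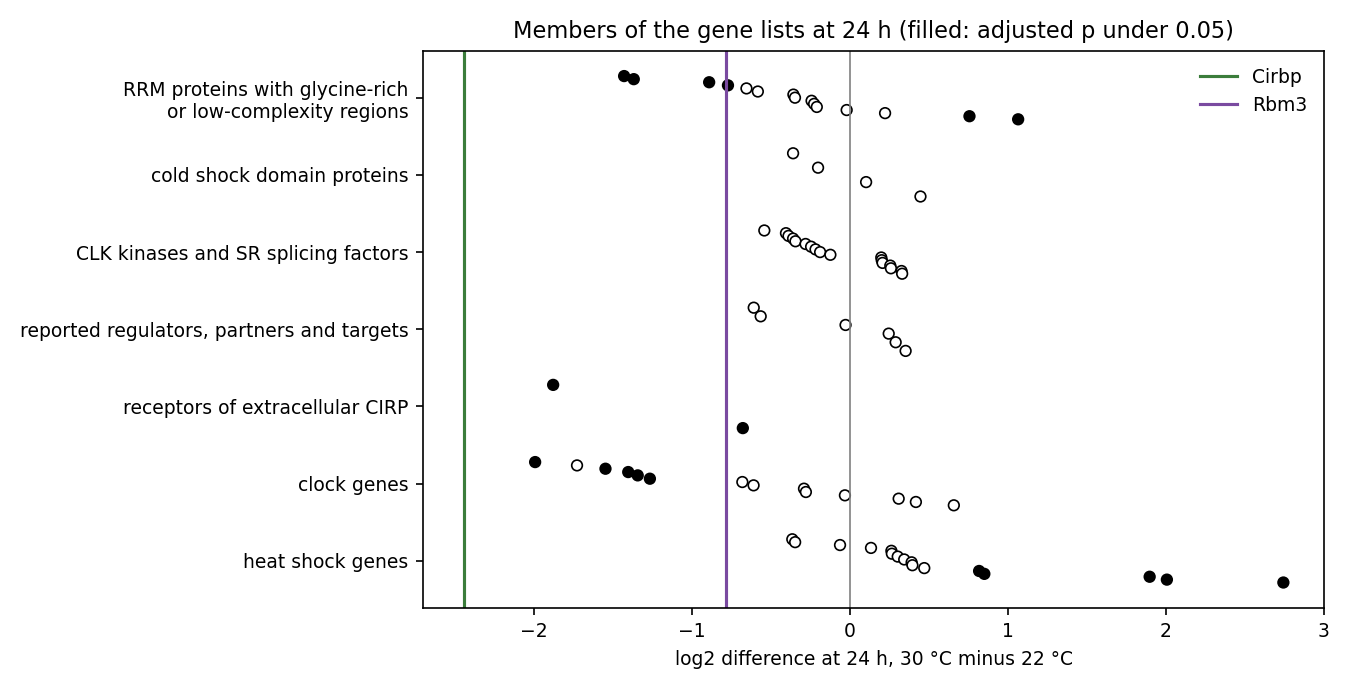
Log2 difference at 24 h, 30 °C minus 22 °C (limma, log2(signal + 1)), for each tested member of the 7 gene lists, 1 point per gene, filled where the adjusted p is under 0.05, with vertical lines at Cirbp and Rbm3. Cirbp at -2.44 lies lower than every list gene plotted, while 5 heat shock genes lie above 0 past the threshold.

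Marker genes of liver cells moved with time as well. At 12 h against 0 h, 1 of the 7 hepatocyte markers was higher and 4 lower at 22 °C, beside 20.7% and 20.6% of all genes. At 30 °C 1 was higher and 6 lower, beside 19.3% and 18.9%. The summed signal of 11 neutrophil and monocyte markers ran from 19.6 to 30.3 at 22 °C and 0 h and from 29.6 to 52.3 at 30 °C. At 24 h it was 137.1 to 308.3 at 22 °C and 175.9 to 371.2 at 30 °C. At 12 h it was 214.7 to 331.1 at 22 °C and 335.8 to 530.5 at 30 °C, with every 30 °C library above every 22 °C library. Of the 4 neutrophil and monocyte markers tested, 3 rose at 24 h at each temperature, beside 19% of all genes at 22 °C and 15.3% at 30 °C. The other 7 of the 11 did not pass the filter on low values. The 4 tested may have passed it through their level after LPS, so the filter favours a rise among them. None of the 4 passed between the temperatures at any time in limma. At 22 °C and 0 h the markers Mmp8, Mpo, Ly6g, Retnlg, Ltf and Camp were at 0. The 6 Kupffer cell markers summed to 122.4 to 180.1 at 22 °C and 0 h and to 27.6 to 61.5 at 24 h, and at 30 °C to 144.8 to 208.9 and 35.5 to 64.7. They did not all fall, since at 24 h against 0 h 1 was higher and 4 lower at each temperature. Over all genes 19% were higher and 18% lower at 22 °C, and 15.3% and 14.4% at 30 °C.

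Between the temperatures at 24 h, 3 of 6 tested endothelial and 2 of 5 tested stellate markers were higher at 30 °C, while 0 of 7 hepatocyte, 0 of 6 Kupffer cell, 0 of 1 lymphocyte and 0 of 2 cholangiocyte markers passed, beside 9.93% of all genes higher and 8.71% lower. The 7 endothelial markers summed to 80.0 to 175.6 at 22 °C and 98.5 to 198.4 at 30 °C, and Clec4g was at 0 at 22 °C. The 7 stellate markers summed to 432.5 to 542.7 and 447.7 to 664.0. At 12 h, where Cirbp also differed, 2 of 7 hepatocyte markers and 1 of 2 tested cholangiocyte markers were lower at 30 °C. Over all genes 0.977% were higher and 3.29% lower at that time. The hepatocyte sums were 52840 to 62080 at 22 °C and 42900 to 49650 at 30 °C. The part of all these markers in the differences of Cirbp and Rbm3 between groups was not tested, and the relations within groups are given above.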

How the data were processed

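Liver RNA from 36 samples in 8 groups was sequenced by a modified CEL-Seq2 protocol on bulk RNA, per the labels' protocols. The submitters' processing notes name Trimmomatic, kallisto and sleuth. The authors deposited 2 values per gene and sample, both used as signal: scaled reads per base, the main value, and a column named TPM, whose library sums ran from 757040 to 1746038. Index, genome build, handling of molecular identifiers and scaling between libraries are not stated there or in the labels. Between 16.8% and 19.6% of values were whole multiples of the read unit within 0.01 of it. Whole reads could thus not be recovered over all genes with this unit, and estimated reads cover counting error only.

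Symbols came from GENCODE M21 (34406 of 34829 matched). Genes averaging 5 or more in signal went into limma 3.58.1 under R 4.3.3 (lmFit, eBayes with a trend), two-sided, all samples in 1 fit, on log2(signal + 1), with Benjamini-Hochberg adjustment in each of 17 contrasts. The fit was tested on simulated data. Promoters came from RefSeq; 1 of 2 members matched. The members, gene lists and tests were chosen with earlier results of these data known. Named genes were both members, up to 3 of smallest p per list and contrast where any passed, and the 5 most like each member with a mean of at least 20 in their highest group; not every gene so chosen is reported here. Library numbers do not pair samples: same-numbered deviations correlated at a median of -0.001.

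Alternatives were an added constant of 0.5, no filter, the TPM column, median-ratio scaling, fits of only the groups compared, a replicate block, library weights and leaving out each library.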

Additional observations from a re-analysis of the deposited data

Results flagged for a closer look

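Rbm3 in replicate 1 at 30 °C and 12 h was 244.3, far from the other 3 libraries of the group relative to its range. Of 24 groups of values checked in this way, chance alone marks about 1 in 20. The Cirbp interaction at 24 h, -1.85 ± 0.52 (limma adjusted p = 0.0214), is a tested difference between the temperatures in the change since 0 h.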

How the results depend on the processing

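No result for either gene or their ratio changed direction past the threshold. With no filter on low values, Cirbp lost the 30 °C minus 22 °C call at 12 h (-1.30, limma adjusted p = 0.103), the 4 h call at 22 °C (-1.18, 0.0503), the 12 to 24 h step at 30 °C (-1.07, 0.0959) and the 24 h interaction (-1.85, 0.0505), and Rbm3 lost the 4 h call at 30 °C (0.50, 0.0747); more genes were tested there, 22490. An added constant of 0.5 ended the Cirbp 12 h call (-1.33, 0.0511), and so did a fit of only the groups compared (-1.30, 0.0769). Such fits also ended the Cirbp 12 to 24 h step at 30 °C (-1.07, 0.102) and the Rbm3 4 h call at 30 °C (0.50, 0.216), which was lost with TPM values (0.47, 0.0577) and library weights (0.39, 0.121). Numbers did not pair the samples. Of the 34 results, passing or not, a replicate block moved 1 across the threshold, the Cirbp 12 to 24 h step at 30 °C (-0.90, 0.0551). The cause of these shifts was not tested.

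Leaving out 1 library, the Cirbp log2 difference ran from -1.57 to -0.90 between the temperatures at 12 h, from 0.52 to 1.18 for 12 h at 30 °C, from -1.45 to -0.92 for 4 h at 22 °C and from -1.46 to -0.80 for the 12 to 24 h step at 30 °C. Rbm3 ran from 0.50 to 0.73 for 4 h at 22 °C, 0.38 to 0.70 for 4 h at 30 °C and -0.82 to -0.48 for the 24 h interaction. The log2 ratio ran from 1.53 to 1.95, 0.54 to 0.76 and 0.97 to 1.40 for 4, 12 and 24 h at 22 °C, from 1.21 to 1.86 for 12 h at 30 °C and from 0.36 to 0.78 between the temperatures at 4 h.

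Without replicate 4 at 30 °C and 4 h, an alternative chosen after seeing the data, 25 list genes passed for 4 h against 0 h at 30 °C (22 with it). Of all 8702 genes, 1415 were higher and 1303 lower in that contrast without it, against 1552 and 1274 with it. Between the temperatures at 4 h 0 list genes passed without it, beside 0 higher and 9 lower of all 8702 genes. Over all genes, calls between the temperatures at 0 h went from 44 to 13 and at 4 h from 18 to 7 in fits of only the groups compared, and at 12 h from 371 to 798 with library weights. Between 12 and 24 h at 22 °C they went from 924 to 603 in fits of only the groups compared, and for the 12 h interaction from 24 to 3 with no filter, 75 with library weights and 76 with the replicate block. Leaving out 1 library, the 12 h temperature calls ran from 188 (without replicate 2 at 22 °C) to 590 (without replicate 5), the 12 h interaction calls from 3 to 121 without the same libraries, and the 4 h temperature calls from 4 (without replicate 3 at 30 °C) to 26 (without replicate 2 at 22 °C). Cirbp at 4 h rests on few reads, which limits its differences there.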
